A study of Mus musculus with 2 samples.

Results

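Osteoclasts, the cells that dissolve bone, were picked out of 2 single-cell RNA libraries of mouse marrow by their transcripts. The libraries were prepared with the 10x Genomics 3 prime kit, which counts each captured RNA molecule once by a molecular barcode (a UMI). Kept cells had 500 or more genes and 1000 or more UMIs, with less than 10% of UMIs from mitochondrial genes. A kept cell was called an osteoclast if Acp5, Ctsk and Mmp9 together reached 20 per 10000 UMIs, if Ocstamp, Dcstamp, Atp6v0d2 and Calcr together had at least 2 UMIs, and if the stromal chemokine Cxcl12 stayed under 30 per 10000 UMIs. This gate took 56 of the 17835 kept cells, out of 20654 deposited barcodes. The name osteoclast stands here for every cell of this gate. Of the 56, 23 had genes of S phase and mitosis together at 10 or more per 10000 UMIs, and 12 had Ctsk under 5. Whether such cells were mature osteoclasts was not tested. There were 31 osteoclasts among 9390 kept cells of the pulse library (0.330%, exact 95% binomial interval 0.224 to 0.468) and 25 among 8445 of the chase library (0.296%, 0.192 to 0.437). The chase share was 0.897 times the pulse share, with an interval of 0.508 to 1.57 that covers 1.

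Both libraries came from Adipoq-CreERT2;Ai9 male mice, in which a tamoxifen-activated Cre driven by the adipocyte gene Adipoq switches on the red fluorescent protein tdTomato. Tamoxifen was given by mouth on 3 consecutive days at 8 weeks of age, and the marrow was taken 24 h later (pulse) or 4 weeks later (chase). Cells were freed by enzyme digestion from the inner bone surface of femur and tibia, and bright tdTomato+ cells were sorted, at 0.01% of all cells for pulse and 0.29% for chase. The series used 4 mice, with no number per library in the sources used here. With 1 library per time point there are no replicates: every interval given here covers counting error only, cells of one library are not replicates, and no test between the time points was possible. The sort was for cells that carry the reporter, so the osteoclast share is a share of sorted cells and not of marrow.

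Osteoclasts arise from the monocyte and macrophage lineage when precursors receive the cytokines M-CSF, through the receptor Csf1r, and RANKL, through the receptor RANK (Tnfrsf11a). The signal switches on the transcription factor Nfatc1, the precursors fuse into large multinucleated cells, and the fused cell seals a patch of bone and pumps acid and proteases onto it. The acid dissolves mineral and the proteases, above all cathepsin K (Ctsk), digest collagen.

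MITF and the related TFE factors, which act in osteoclasts and in lysosome formation, bind the E-box motifs CACGTG and CATGTG. RefSeq promoters (build GRCm38.p6) were therefore searched for both on either strand, from 250 bases before to 50 after each start site. A promoter was matched for 3 of the 7 gate genes (Acp5, Ctsk and Calcr) and for 17 of the 22 genes of acid secretion examined here. These 4 stretches, the 250 bases before a start site, are shown because they hold CACGTG in an acid secretion gene or either motif in a gate gene; capitals mark the E-box and each reads 5′ to 3′ on the gene's own strand. For Acp5 (minus strand, chr9:22130599-22130848), 1 of 3 start sites listed, the capitals read CACATG, which is CATGTG on the other strand, 90 bases before the start. For the proton pump subunit genes Atp6v0b (minus strand, chr4:117887330-117887579) and Atp6v1a (minus strand, chr16:44139260-44139509) and the chloride channel gene Clcn7 (plus strand, chr17:25133141-25133390) they read CACGTG, with the nearest 18, 131 and 15 bases before the start. Not shown are a second start site of Clcn7 and 1 of 3 of Atp6v0c, a pump subunit gene, which have CATGTG 41 and 16 bases before the start.
Acp5: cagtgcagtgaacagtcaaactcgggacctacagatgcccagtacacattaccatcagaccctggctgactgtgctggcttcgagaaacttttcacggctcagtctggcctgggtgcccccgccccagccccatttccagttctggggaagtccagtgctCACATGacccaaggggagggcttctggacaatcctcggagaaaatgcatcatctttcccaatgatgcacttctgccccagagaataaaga
Atp6v0b: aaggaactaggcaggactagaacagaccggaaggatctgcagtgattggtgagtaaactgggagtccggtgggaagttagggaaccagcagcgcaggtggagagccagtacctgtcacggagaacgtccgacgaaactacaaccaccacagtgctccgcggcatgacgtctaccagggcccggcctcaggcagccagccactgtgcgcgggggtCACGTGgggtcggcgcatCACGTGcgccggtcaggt
Atp6v1a: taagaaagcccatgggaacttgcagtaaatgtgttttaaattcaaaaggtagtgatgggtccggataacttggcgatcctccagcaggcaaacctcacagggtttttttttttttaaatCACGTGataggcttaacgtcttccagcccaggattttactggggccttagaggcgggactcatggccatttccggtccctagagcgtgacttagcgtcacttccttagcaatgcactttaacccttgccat
Clcn7: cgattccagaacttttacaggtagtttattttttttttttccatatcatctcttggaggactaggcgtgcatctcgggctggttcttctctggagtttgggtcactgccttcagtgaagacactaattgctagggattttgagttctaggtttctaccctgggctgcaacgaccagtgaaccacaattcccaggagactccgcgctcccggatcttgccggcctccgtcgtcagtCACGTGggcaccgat

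CACGTG was present for 5 of 17 acid secretion genes (29.4%) and 4 of 13 protease genes (30.8%), against 8.09% of the 27025 genes with a promoter outside chromosome 18. With the 250 bases before the start alone these shares were 17.6%, 30.8% and 6.86%. A gene counted if any of its start sites had the motif. Per promoter the shares were 20%, 25% and 7.15%, or 12%, 25% and 6.02% with the 250 bases alone. CATGTG was present for 2 of the acid secretion genes (11.8%, against 15.9% of all genes). No adhesion gene with a promoter (12 genes) and none of the activating transcription factor genes (12) had CACGTG. The NFAT core TGGAAA was found for 6 acid secretion genes (35.3%, against 23.9%), the AP-1 motif TGANTCA for 2 (11.8%, against 8.97%) and the PU.1 motif AGGAAGT for 2 (11.8%, against 10.7%). A match describes letters in the window and is not evidence of binding.

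Taken alone, the fusion genes of the gate (Ocstamp, Dcstamp, Atp6v0d2 and Calcr) were passed by fewer kept cells than the protease genes. They had 2 or more UMIs in 55 pulse and 54 chase cells. Of these, 21 and 22 missed the protease level with Cxcl12 under its limit. Of 231 pulse and 160 chase cells that reached the level of Acp5, Ctsk and Mmp9, 33 and 28 also had 2 or more fusion gene UMIs. Another 181 and 108 had too few fusion gene UMIs with Cxcl12 under its limit, and 173 and 100 of those carried neutrophil transcripts (S100a8 and S100a9 at 200 or more per 10000 UMIs). Neutrophils also express Mmp9. The Cxcl12 limit removed 2 and 3 cells that met both other conditions. The members nearest the protease limit had 21.96 (pulse) and 22.6 (chase) per 10000 UMIs, and the nearest cells outside it had 19.5 and 16.7; the members nearest the fusion limit had 3 and 4 UMIs, and the nearest outside had 1.

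Osteoclasts were deeply covered. Their median depth was 24748 UMIs and 4562 genes in the pulse library and 29666 UMIs and 4835 genes in the chase library, with single cells between 6960 and 53234 UMIs. Cells of the macrophage gate, the comparison used below (C1qa, C1qb and C1qc together at 20 or more per 10000 UMIs, 1214 and 1048 cells), had medians of 7327 and 9828 UMIs. The median mitochondrial share of osteoclasts was 4.11% and 4.76%. Scrublet, a doublet caller, marked 178 pulse cells (1.90%) and 110 chase cells (1.30%), none of them an osteoclast. The libraries shared 20 barcodes among kept cells, none of them an osteoclast's. Transcripts of another cell type were high in 5 pulse and 2 chase osteoclasts, among them 2 pulse cells with neutrophil S100a8 and S100a9 at 200 or more per 10000, 1 chase cell with C1q genes at 20 or more and 1 pulse cell with red cell genes at 10 or more.

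The genes that chose the cells are given as a description. Acp5 (chromosome 9, 22126727 to 22135711, mm10), which encodes the tartrate-resistant acid phosphatase, had a level of 5843 CPM (UMIs summed over the osteoclasts of a library and scaled to a total of 1000000; exact 95% Poisson interval 5679 to 6011) in pulse and 5768 (5594 to 5946) in chase osteoclasts. Ctsk (chromosome 3, 95499256 to 95509362) had 4253 (4113 to 4396) and 4337 (4186 to 4491) CPM. Mmp9, a gelatinase (chromosome 2, 164940780 to 164955850), had 2827 (2713 to 2945) and 2045 (1942 to 2152). The libraries were close for Acp5 and Ctsk, while the counting intervals of Mmp9 did not overlap. Across single cells Mmp9 overlapped widely, with quartiles of 2.01 and 36.9 per 10000 UMIs in pulse cells and 1.01 and 27.2 in chase cells.

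Among the fusion genes, Atp6v0d2, a proton pump subunit that is also needed for fusion, had 664 and 781 CPM and was found in every osteoclast. Ocstamp, a membrane protein needed for fusion, had 172 and 149 CPM with UMIs in 44 of 56 cells. The related Dcstamp had 130.4 and 88.5 CPM with UMIs in 34. The calcitonin receptor gene Calcr, a marker of mature osteoclasts, was all but absent: 3.66 CPM from 2 pulse cells and no UMI in the chase cells, where 3 UMIs would be 4.15 CPM. So the label rests on the protease genes and on 3 of the 4 fusion genes, mostly on Atp6v0d2. Its median was 17 UMIs per osteoclast, against 3 for Ocstamp and 1.5 for Dcstamp. Markers outside the gate that are known from osteoclasts were mixed. After thinning to 2000 UMIs per cell Nfatc1 had a UMI in 67.7% and 68% of osteoclasts, against 7.91% and 7.33% of the macrophage gate. At full depth Itgb3 (the beta 3 integrin), Oscar (a co-receptor) and Siglec15 (a lectin of fusing precursors) were seen in 11, 7 and 6 cells.

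**Figure D1:**
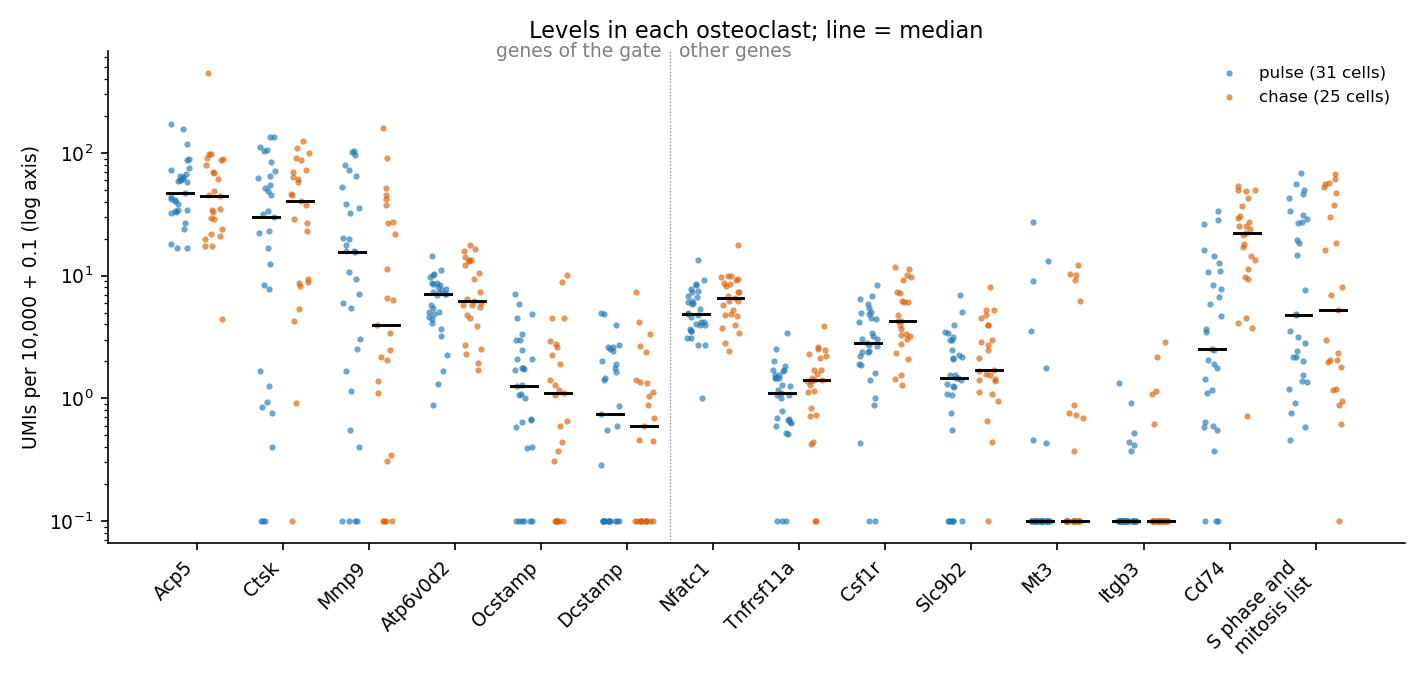
Levels of 13 genes and of 1 summed gene list in each osteoclast, in UMIs per 10000 plus 0.1 on a log axis, pulse cells in blue and chase cells in orange, with the median as a bar. Ctsk and Mmp9 spread over more than the range of Atp6v0d2 and Nfatc1, Mt3 and Itgb3 are at 0 in most cells, and Cd74 lies higher in the chase cells.

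Each gene was then set against the macrophage gate, with both libraries pooled because the chase library had under 30 osteoclasts. The macrophage gate is the nearest mature relative in these data. The gate picked osteoclasts for genes that differ between these cell types, so the contrast is a description. A gene counts as higher or lower if it differed at least 2-fold and its exact interval excluded 1, among the 10907 genes with at least 50 UMIs. By this measure 1421 genes were higher (13%) and 2779 lower (25.5%), and the median gene was at -0.26 on the log2 scale. Ribosomal protein genes summed to 235761 CPM in osteoclasts against 126543 CPM in the macrophage gate. When libraries were scaled without mitochondrial, ribosomal protein and gate genes, the median gene was at 0.0053 and 48.3% of called genes were higher, against 33.8% with all UMIs and 48.0% with scaling by the median of ratios. Lists are therefore read against the median gene.

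Acid secretion genes were mostly higher in osteoclasts. Of 22 members, 12 were higher and 1 lower, beside 13% and 25.5% of all genes. The list's median was 1.32 on the log2 scale (1.07 in pulse, 1.58 in chase), beside -0.26 for all genes. Slc4a2, which carries bicarbonate out as acid is secreted, had 118 CPM in pulse and 127 in chase osteoclasts and 27.4 in the macrophage gate (4.48-fold, 3.77 to 5.29). The proton pump subunit genes Atp6v0e (4.19-fold) and Atp6v1b2 (4.08-fold) were higher to a like extent. Tcirg1, the pump subunit whose loss causes osteopetrosis, had 361 and 365 against 134 CPM (2.71-fold, 2.47 to 2.97). Car2, the carbonic anhydrase that supplies protons, had 199.8 and 153 against 64.8 CPM. The pump subunit Atp6v0a1 went the other way, with 12.2 and 4.15 against 117 CPM (13.4-fold lower); it encodes an alternative form of the subunit that Tcirg1 encodes. Clcn7, the chloride channel, and its partner Ostm1 were called neither way, at 47.5 and 56.7 against 40.7 CPM and at 20.7 and 34.6 against 29.6 CPM.

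Genes of adhesion and the actin ring, the structure that seals the cell to bone, were more often higher than lower. Of 20, 7 were higher and 2 lower, beside 13% and 25.5% of all genes. The list's median was 0.09, beside -0.26 for all genes. Src, a kinase needed for the ruffled border, had 130.4 and 170.1 CPM against 18.3 (8.17-fold, 6.89 to 9.65). The motor gene Myo1e was 4.83-fold and the Rac activator Dock5 4.12-fold higher. The alpha and beta chains of the vitronectin receptor differed in how widely they were found: Itgav had 246 and 252 against 109.9 CPM with UMIs in all 56 cells, and Itgb3 had 10.97 and 27.7 against 3.44 CPM with UMIs in 11. Itgb5, another beta chain that pairs with Itgav, was 8.995-fold lower.

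Of 16 receptors and signalling genes 14 had enough UMIs, 1 was higher and 6 were lower, beside 13% and 25.5% of all genes (median -0.86). The higher one was Tnfrsf11a, the gene of RANK, with 99.9 CPM in pulse and 141 in chase osteoclasts against 52.2 (2.29-fold, 1.94 to 2.67); it fell short of 2-fold in the pulse library alone, where no member was higher. Csf1r had 314 (277 to 355) and 473 (424 to 526) CPM against 647 and was called neither way. The adaptor genes of the co-receptors split: Tyrobp (DAP12) was at 1989.9 and 1879 against 1490.0 CPM, called neither way, and Fcer1g was 2.998-fold lower, as were the kinase Syk (3.72-fold), the receptor Trem2 (2.91-fold) and the exchange factor Vav3 (2.56-fold). Trem2 was short of 2-fold in the chase library alone (log2 -0.88) and Vav3 in the pulse library alone (-0.72).

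Of the transcription factors that drive osteoclast formation more were higher than lower, whereas those that hold it back were nearly all lower. Of 18 activating factors 6 were higher and 4 lower, beside 13% and 25.5% of all genes. The list's median of -0.06 ranged from -0.13 to 0.21 over the alternatives, with 2 lower under either other scaling. Nfatc1, the master regulator, had 547 (498 to 600.2) and 639 (582 to 699.9) CPM against 43.2 (13.7-fold, 12.4 to 15.01), with UMIs in every osteoclast. Prdm1 (Blimp1), which represses the anti-osteoclast factors, had 465 and 454 against 61.1 CPM. Jdp2, an AP-1 partner, had 883 and 837 against 117 CPM. Ppargc1b, a coactivator of mitochondrial genes, was 6.71-fold, Fosl2 2.38-fold and Spi1 (PU.1) 2.05-fold higher, whereas Hivep3 was 7.23-fold lower. Mitf itself was called neither way, at 87.7 and 85.7 against 47.3 CPM.

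Of 9 repressors none was higher and 8 were lower, beside 13% and 25.5% of all genes, with a median of -2.95. Irf8, which keeps precursors in the macrophage fate, had 8.53 and 20.7 CPM against 538 in the macrophage gate and 490.4 in the monocyte gate (Csf1r together with Ly6c2, F13a1 or Ccr2). Cebpb was 9.52-fold and Id2 8.19-fold lower. Rbpj was the one called neither way. Irf8, Cebpb and Id2 were each below the macrophage level in both libraries.

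Proteases and inhibitors outside the gate were more often lower than higher. Of 16 proteases and inhibitors, 4 were higher and 8 lower, beside 13% and 25.5% of all genes (median -1.45). Mmp14, a membrane-bound collagenase, had 413 and 415 against 110.0 CPM, and Cstb, an inhibitor of cathepsins, had 1259 and 1139 against 425. Ctsb was 15.6-fold, Ctsc 19.2-fold, Ctsh 17.7-fold and legumain (Lgmn) 15.8-fold lower. Mmp8, a neutrophil collagenase, was counted as higher from UMIs in 4 cells, with 57.3 CPM in pulse and 1.38 in chase, 39.6% of them from 1 cell. Transcripts of neutrophils were high in 2 pulse osteoclasts. Without all members with transcripts of another cell type the log2 ratio of Mmp8 was 2.92, against 4.49. The part of those 2 cells alone was not tested. In the chase library alone 2 members of the list were higher.

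Fusion genes outside the gate were mostly lower. Of 8 such genes 6 had enough UMIs, and of these 1 was higher and 5 were lower, beside 13% and 25.5% of all genes. The higher one was the tetraspanin Cd9 (201 and 332 against 28.9 CPM), with 27.2% of its UMIs from 1 cell. The tetraspanin Cd81 was 28.6-fold and the ATP receptor P2rx7 8.54-fold lower. Of 12 coupling factors, the secreted or surface proteins by which osteoclasts act on osteoblasts, 8 had enough UMIs. Of these 8, 1 was higher and 2 were lower, near the shares of all genes (13% and 25.5%). Sema4d, which restrains osteoblasts, had 158 and 158 against 41.6 CPM (3.81-fold, 3.28 to 4.39). Pdgfb was called neither way at 195 and 207 against 186 CPM, and Igf1 was 21.6-fold lower.

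**Figure D2:**
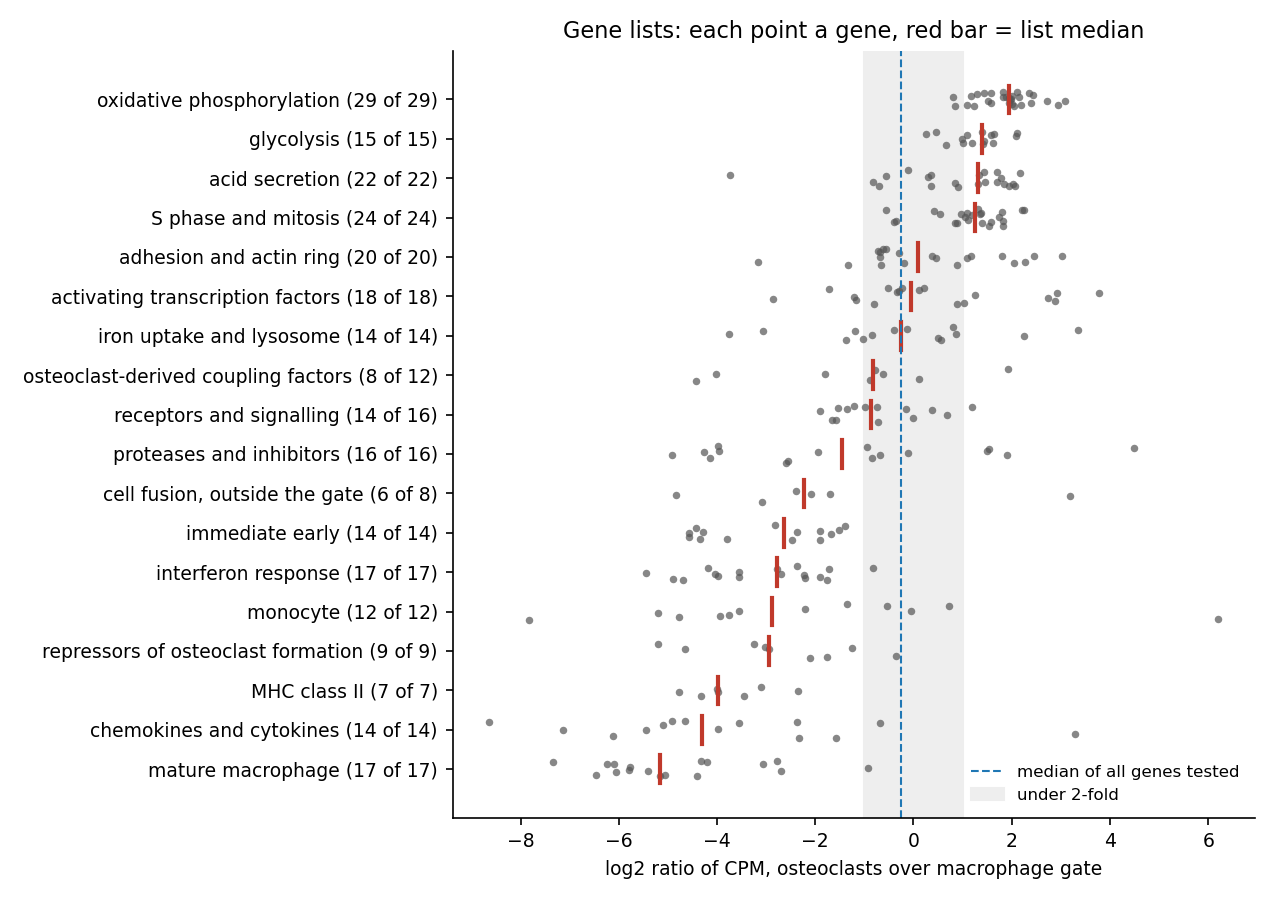
Log2 ratio of osteoclast to macrophage gate level for each gene of 18 lists, 1 point per gene with at least 50 UMIs, the list median as a red bar, the median of all genes tested as a dashed line and differences under 2-fold shaded. Oxidative phosphorylation, glycolysis and acid secretion have the highest medians and mature macrophage genes the lowest, at -5.17.

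Energy metabolism stood high. Of 29 oxidative phosphorylation genes 27 were higher and none lower, beside 13% and 25.5% of all genes. Their median was 1.94 (1.92 in pulse, 1.93 in chase). Cyc1, a subunit of respiratory complex III, had 570.3 and 532 against 65.4 CPM, cytochrome c (Cycs) was 7.64-fold and the ATP synthase gene Atp5g1 6.62-fold higher. Of 15 glycolysis genes 10 were higher and none lower (median 1.38), led by Aldoa (4.30-fold) and Eno1 (4.24-fold). In iron uptake and lysosome genes 2 of 14 were higher and 5 lower, beside 13% and 25.5% of all genes. Under either other scaling 4 were higher and 3 lower. The metalloreductase Steap4 was 10.1-fold higher with UMIs in 18 of 56 cells, or 2.14 on the log2 scale against 3.34 with the mitochondrial limit at 5%, while the lysosomal membrane genes Lamp1 and Lamp2 were 13.6-fold and 8.42-fold lower.

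Among all other genes the greatest excess by the ranking used was that of Slc9b2 (chromosome 3, 135307700 to 135345387), a sodium and proton exchanger, with 189 and 249 CPM in osteoclasts against 0.394 in the macrophage gate, 0.193 in the monocyte gate and 0.392 in stroma. It had UMIs in 49 of 56 osteoclasts. Bdh2, a cytosolic dehydrogenase, followed with 82.9 and 165 against 0.590 CPM. The metallothionein Mt3 had 179 and 214 against 3.84 CPM, but these UMIs lay in 17 of 56 cells. With the mitochondrial limit at 5% its log2 ratio was 0.20, against 5.67. Mitochondrial genes were among the 15 as well, Coq8a, which acts in coenzyme Q synthesis, at 39.9-fold and Chchd10 at 33.3-fold, beside the actin-capping gene Capg (16.5-fold) and the lysosomal sulfatase Arsb (12.2-fold, or 2.45 against 3.61 on the log2 scale with the mitochondrial limit at 5%). S100a4, a calcium-binding protein, had 5937 and 5682 against 78.8 CPM in the macrophage gate and 1001 in the monocyte gate, and S100a10 had 1332 and 1449 against 56.5 and 933. Col27a1, Plp2, Pstpip1, Nudt22 and the annexin Anxa1 lay between 12.03-fold and 31.1-fold, and Nfatc1 completed the 15. Plp2 was as high in the monocyte gate (123 CPM) as in osteoclasts (123 and 145), and Anxa1 higher in the neutrophil gate (2001 CPM).

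Mature macrophage genes were lower in osteoclasts with few exceptions. Of 17 mature macrophage genes 16 were lower, beside 25.5% of all genes (median -5.17). Their summed level was 374 CPM in pulse and 860.1 in chase osteoclasts against 22664 in the macrophage gate. This direction is set in part by the comparison gate, which was chosen on C1q genes. The scavenger receptor gene Cd163 had no UMI in any osteoclast, where 3 UMIs would be 1.94 CPM, against 52.7 CPM. C1qa had 28.03 and 104 CPM, with 60.2% of its UMIs from 1 cell. Of 12 monocyte genes 7 were lower and 1 higher, beside 25.5% and 13% of all genes. The higher one was S100a4, and F13a1, a clotting factor gene of monocytes, had 1 UMI.

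Of 14 chemokine and cytokine genes 12 were lower and 1 higher, beside 25.5% and 13% of all genes (median -4.31). The higher one was Ccl9, a chemokine made by osteoclasts, with 1021 and 832 against 95.8 CPM (9.73-fold, 9.09 to 10.4). Spp1 (osteopontin) was called neither way at 207 and 248 against 362 CPM. Cxcl10 and Ccl12 had no UMI in any osteoclast, against 129 and 105 CPM, and Ccl4 had 6.09 and 2.77 against 684. All 14 of 14 immediate early genes were lower (median -2.64), for example Atf3 at 19.5 and 42.9 against 729.6 CPM and Egr1 at 36.6 and 77.4 against 1201. Of 17 interferon response genes 16 were lower (median -2.79). Besides Cxcl10 and Ccl12, the 10 lowest genes by the ranking were Cx3cr1 (1.22 and 2.77 against 512 CPM), Cxcl9, Slc9a9, Ccl7, Gdf15 (10.97 and 13.8 against 1258), Slc15a3, Arhgap19 and Wfdc17.

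**Figure D3:**
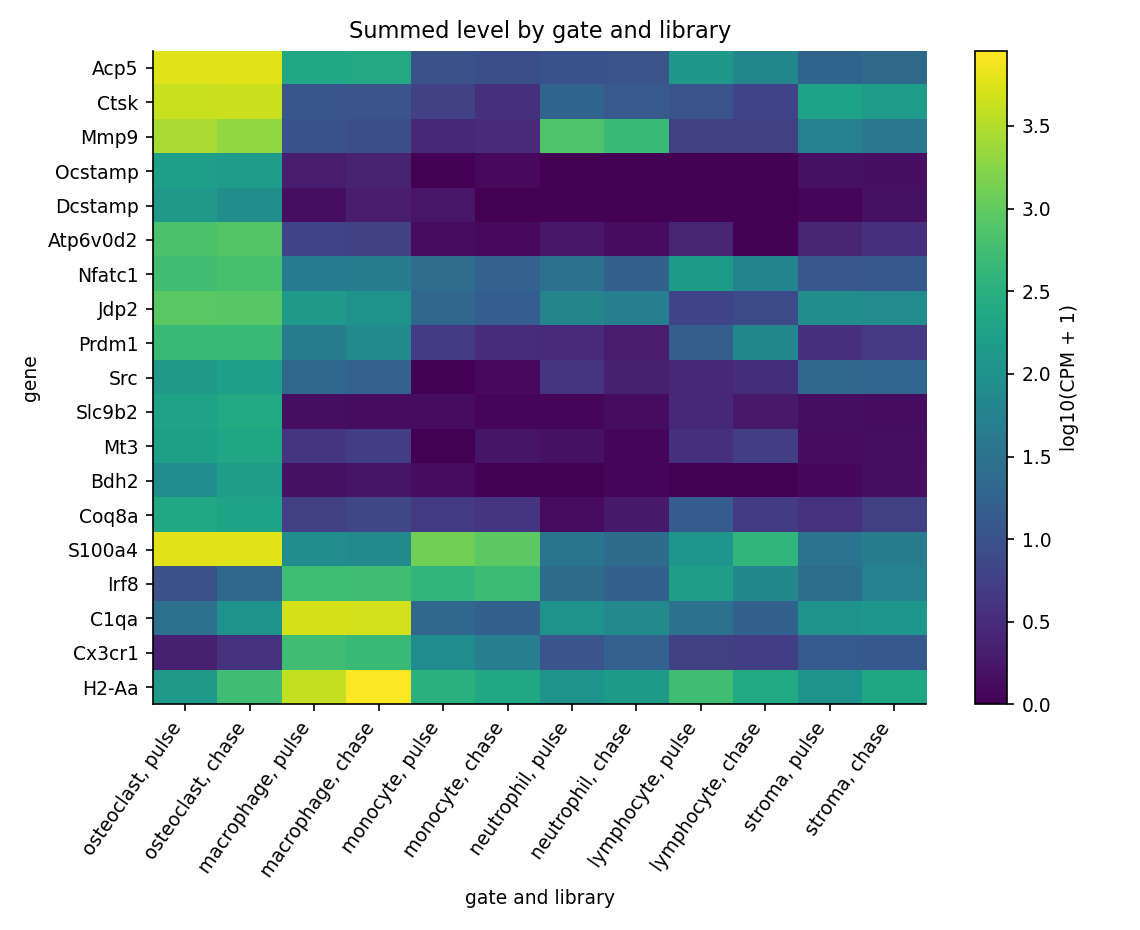
Summed level of 19 genes in 6 gates of each library, as log10 of CPM plus 1. The gate genes and Slc9b2 are bright in the osteoclast columns, Mmp9 is also bright in neutrophils and S100a4 in monocytes, while Irf8, C1qa, Cx3cr1 and H2-Aa are dimmer in osteoclasts than in macrophages.

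The 56 osteoclasts were not alike. Ctsk ran from 0 to 135 per 10000 UMIs with a median of 29.7 in pulse cells, and from 0 to 126 with a median of 40.3 in chase cells, and 4 of 56 cells had no Ctsk UMI. Mmp9 was at 0 in 8 cells, and its median was 15.5 in pulse and 3.83 in chase cells. Nfatc1 varied less, from 0.906 to 17.8 with a median of 4.72 in pulse and 6.48 in chase cells. Mt3 was at 0 in both medians and reached 27.3 in a pulse cell and 12.1 in a chase cell.

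The level of the acid secretion list followed Ctsk from cell to cell. Spearman's rho was 0.87 over the 56 cells (0.89 over pulse and 0.91 over chase cells), and 0.83 after each cell was thinned to 6000 UMIs. Correlations across cells are descriptions: the cells share 2 libraries, and levels in 1 cell share a total. Acp5 (0.80, thinned 0.77), Mmp9 (0.74, thinned 0.73) and Atp6v0d2 (0.71, thinned 0.45) also ran with Ctsk. The gate chose the cells on Ctsk and on these genes, so their joint spread is partly set by the gate. Outside the gate, Slc9b2 (0.71, thinned 0.47), the oxidative phosphorylation list (0.64, thinned 0.57) and Csf1r (0.57, thinned 0.49) ran with Ctsk. Tnfrsf11a (-0.10), S100a4 (-0.01) and Cd74 (0.02) did not, and Nfatc1 went from 0.29 to 0.03 with thinning. Ctsk had a rho of 0.07 with depth but 0.65 with the mitochondrial share of the cell, and the acid secretion list 0.61 with that share. The part of the mitochondrial share in these relations was not tested. With the mitochondrial limit at 5%, which left 19 pulse and 13 chase cells, the rho of Ctsk with the acid secretion list was 0.65.

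Genes of S phase and mitosis ran against Ctsk, with a rho of -0.67 (-0.65 in pulse, -0.76 in chase, -0.61 thinned), or -0.35 with the mitochondrial limit at 5%. The list also had a rho of -0.61 with the mitochondrial share. It reached 10 or more per 10000 UMIs in 13 of 31 pulse and 10 of 25 chase cells, in which the median of Ctsk was 8.22 and 8.46. Of these 23 cells 15 had Ctsk under 20 per 10000 and 8 had 20 or more, whereas of the other cells 27 had Ctsk at 20 or more and 6 had less. The cells with the list high had median depths of 30246 and 33786 UMIs, against 24748 and 29666 for all osteoclasts. They had a median Ocstamp of 0.302 and a median Dcstamp of 0, and the cells with Ctsk at 20 or more had 1.82 and 1.35. Ctsk, Ocstamp and Dcstamp are all gate genes, so these medians are a description of the chosen cells.

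Against the macrophage gate, 16 of 24 S phase and mitosis genes were higher and none lower, beside 13% and 25.5% of all genes (median 1.26). The number higher was 9 in the pulse library alone and 8 among cells with the gate's protease genes at 40 or more. The list summed to 2100 CPM in osteoclasts, 1069 in the macrophage gate and 2332 in the lymphocyte gate. Ube2c, which tags mitotic proteins for removal, had 230.3 and 179.8 CPM in osteoclasts from 20 cells, 43.2 in the macrophage gate, 334 in the monocyte gate and 359.9 in the neutrophil gate. The mitotic kinase Cdk1 had 101 and 92.6 against 27.4 CPM. So the osteoclast level of Ube2c lay between those of the macrophage gate and the monocyte and neutrophil gates. Pcna and the replication licensing genes Mcm2, Mcm3, Mcm4 and Mcm5 were called neither way.

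Over the 952 genes with at least 200 UMIs in osteoclasts (mitochondrial, ribosomal protein, predicted, gate and other-cell genes aside), those that ran most closely with Ctsk were Ckb (0.79), the brain-type creatine kinase, Atp6v1a (0.77), the lysosomal enzyme Hexa (0.76), Coq8a (0.75) and Atp6v1g1 (0.73). The proton pump genes Atp6v1e1, Atp6v0c, Atp6v1f and Atp6v0e were also among the 20 most positive. The share of the Atp6 family among the 952 genes was not counted. The most negative were the nucleolar genes Npm1 (-0.75) and Ncl (-0.75), the splicing genes Snrpf (-0.75) and Snrpg (-0.74), and Ptma (-0.75). Stmn1, Tuba1b and Tubb5, genes of microtubules, were also among the 20 most negative. Npm1 was at -0.72 in pulse and -0.76 in chase cells, and Ckb at 0.79 and 0.81. This ranking was added after the data had been seen.

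**Figure D4:**
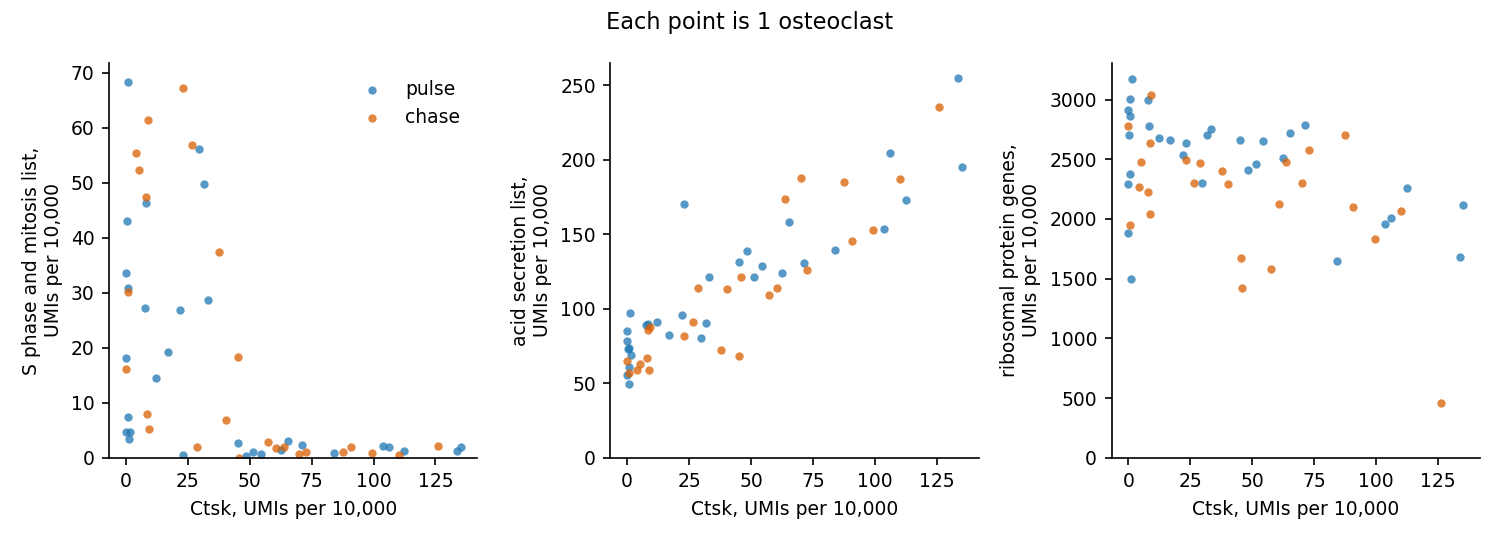
Each osteoclast by its Ctsk level (x axis, UMIs per 10000) and the summed level of S phase and mitosis genes, acid secretion genes or ribosomal protein genes (y axes, UMIs per 10000), pulse in blue and chase in orange. Cells with high S phase and mitosis levels lie at low to middle Ctsk, acid secretion rises along Ctsk (rho 0.87) and ribosomal protein genes decline (rho -0.39).

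Per-gene calls between the time points were not made, since the chase library had under 30 osteoclasts, and the values stand side by side. MHC class II genes, which present antigen, summed to 1148 CPM in pulse and 4057 in chase osteoclasts, and the macrophage gate had 17526 and 41257. All 7 were lower in osteoclasts than in the macrophage gate, beside 25.5% of all genes (median -3.98). Cd74, the invariant chain, had 660.5 CPM in pulse and 2322 in chase osteoclasts. Per cell it ran from 0 to 33.5 per 10000 with a median of 2.40 in pulse, and from 0.617 to 53.6 with a median of 22.3 in chase cells, so the ranges overlapped. All other kept cells together also had more Cd74 in the chase library, 1162 CPM in pulse and 2741 in chase. Csf1r medians were 2.73 and 4.18 per 10000, with ranges of 0 to 8.27 and 1.18 to 11.7. In all other cells Csf1r stood at 79.1 and 129 CPM. Both genes were thus higher in the chase library inside and outside the osteoclast gate, and the part of free RNA or of the library was not tested.

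tdTomato, the reporter of the sort, was low in osteoclasts. It had 156 CPM (130.1 to 185) in pulse and 88.5 (68.2 to 113) in chase osteoclasts, against 1966 and 1862 in stroma (Cxcl12 at 30 or more per 10000). The macrophage gate had 206 and 158 CPM, the monocyte gate 148 and 90.1, and the neutrophil gate 169 and 165. The pulse osteoclast level lay between those of the monocyte and neutrophil gates, with an interval that covers both. It was 115 CPM with Cxcl12 under 5 per 10000, and 122 CPM without members with transcripts of another cell type. A single cell gave 27 of the 128 pulse UMIs. The chase osteoclast level was the lowest of the 4, with an interval that covers that of the monocyte gate. The lymphocyte gate stood higher, at 1010.2 and 619 CPM.

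After every cell was thinned to 2000 UMIs, 8 of 31 pulse osteoclasts (25.8%, 11.9 to 44.6) and 5 of 25 chase osteoclasts (20%, 6.83 to 40.7) had a tdTomato UMI. The neutrophil gate, whose cells are not known to express Adipoq, had 26.8% and 21.95%, the macrophage gate 32.4% and 24.4% and the monocyte gate 25.6% and 17.2%, all within the osteoclast intervals. The lymphocyte gate had 76.8% and 65.7%. Whether free RNA gave the UMIs of osteoclasts was not tested. Stroma had 87.6% and 89.9%. Without thinning the osteoclast shares were 93.5% and 92% at median depths of 24748 and 29666 UMIs, and those of the neutrophil gate 60.7% and 59.1% at 8219 and 9848. Adipoq itself, the gene that drives the Cre, had 11 UMIs in pulse and 8 in chase osteoclasts (13.4 and 11.1 CPM, against 1601 and 1695 in stroma).

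**Figure D5:**
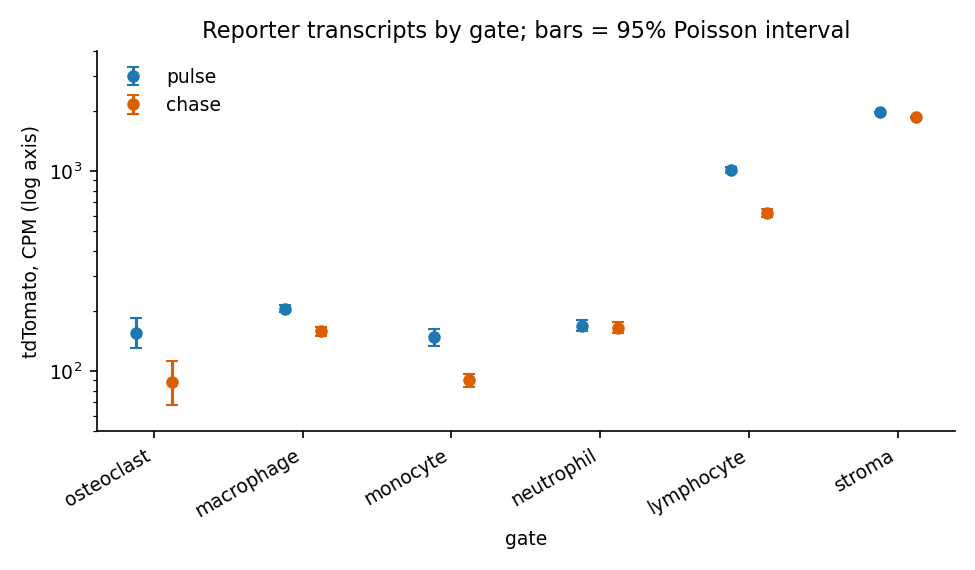
tdTomato level by gate and library in CPM on a log axis, with exact 95% Poisson intervals as bars (counting error only). Osteoclasts, at 156 and 88.5 CPM, are lowest of the gates in the chase library and above the monocyte gate in the pulse library. In both libraries their interval covers the monocyte level. Stroma is at 1966 and 1862.

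Transcripts of other marrow cells were low in most osteoclasts. The stromal list (10 genes) summed to 721 and 661 CPM, of which Lpl, which macrophages also express, gave 227 and 415, against 1793 CPM for the list in the macrophage gate. The osteoblast list summed to 494 and 299 CPM, with 7 of 8 genes lower than in the macrophage gate, beside 25.5% of all genes. The neutrophil list summed to 6389 CPM in pulse and 285 in chase osteoclasts, and Retnlg, a neutrophil gene, had 499.6 and 1.38 CPM with UMIs in 7 cells. The erythroid list summed to 495 and 52.5 CPM, and 1 pulse cell gave 80.6% of the Hbb-bs UMIs. Of the T and NK list 3 of 8 genes, of the endothelial list 3 of 7 and of the megakaryocyte list 4 of 5 had no UMI in any osteoclast. The B and plasma list summed to 57.3 and 165 CPM.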

How the data were processed

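The deposited matrices hold raw counts of UMIs per gene and barcode that the authors did not normalise. Per the file headers they come from Cell Ranger 6.0.2. Per the submitters' processing notes the version was 2.1.1 and the build mm10, so the version is not settled. Cells were gated on raw counts, UMIs were summed per gate and library, and levels are CPM of 32286 features. Ratios carry exact conditional intervals and shares Clopper-Pearson intervals at 95%, with a prior of 0.5 counts on the log2 scale. Calls need 2-fold and 50 UMIs, without p-values. The other gates were the macrophage, monocyte, lymphocyte (5 per 10000 of Cd3 and B cell genes), neutrophil and stroma gates. All but stroma were limited to low levels of the protease genes, and for neutrophils this limit was on Acp5 and Ctsk without Mmp9. Doublets marked by Scrublet (scanpy 1.11.5) stayed in, with removal as an alternative. Members and all 26 gene lists were chosen with earlier results of these data known. Genes named are the gate genes, up to 4 per list with the greatest absolute log2 ratio at 20 or more CPM, and the 15 highest and 10 lowest at 100 or more CPM by the library with the smaller difference. One gene that this rule names is not reported here. Further list members were named for their known role after their values were seen. Chase was not called against pulse gene by gene, as both libraries would have needed 30 osteoclasts. The calling code was tested on simulated data. Gene positions are of mm10, from the reference annotation.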

Additional observations from a re-analysis of the deposited data

How the results depend on the processing

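No paired analysis was possible because each group has 1 library and the replicate numbers pair nothing. Of the summary values recomputed under other gates, filters and scalings, 138 kept within the spread allowed and 9 did not. Of the values of single genes and lists, 2002 did, 395 did not and 1 reversed. Of 124 genes followed, 33 moved by over 1.5 times with the mitochondrial limit at 5%, 29 with protease genes at 40 per 10000, 28 in the pulse and 35 in the chase library alone and 27 without members with transcripts of another cell type. Past 2-fold was lost by Mt3 (0.20, mitochondrial limit), Mmp8 (0.42), Trem2 (-0.88) and Lpl (-0.80) in the chase library alone, and Vav3 (-0.72) and Igfbp5 (-0.89) in the pulse library alone, all on the log2 scale. With the mitochondrial limit at 5%, 19 pulse and 13 chase osteoclasts were left, the chase share was 0.190%, and the rho of Ctsk was -0.35 with the S phase and mitosis list and 0.65 with the acid secretion list. Pulse tdTomato was 115 CPM with Cxcl12 under 5 per 10000 and 122 CPM without members with transcripts of another cell type, an alternative chosen after seeing the data. Without thinning, cells with a tdTomato UMI were 93.5% in pulse and 92% in chase. Scaled without mitochondrial, ribosomal protein and gate genes, the median log2 ratio of all genes was 0.0053. CACGTG was in 6.86% of all genes with the 250 bases before the start alone. Retnlg reversed to -1.56 (log2) in the chase library alone. Across alternatives 1029 to 1988 genes were higher and 2127 to 2907 lower. The gate held 19 to 40 pulse and 13 to 28 chase cells, so chase against pulse was run under no alternative. The 56 cells limit low genes: 3 UMIs are 3.66 CPM in pulse and 4.15 in chase osteoclasts.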
